A study of Mus musculus with 4 samples.

Results

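The loci described here are those of 9 mouse genes: the classical cadherins Cdh1, Cdh2, Cdh3 and Cdh4, the related type II cadherins Cdh11 and Cdh20, and the epithelial genes Epcam, Esrp1 and Esrp2. A nucleosome-free site was counted with a gene when its centre lay within 100 kb of the start site of the gene's principal transcript, so the rule used position and no measured value. By this rule 64 of the 65467 peaks of control facial ectoderm belonged to these loci. So did 5 of the 3103 regions that lost accessibility when AP-2α and AP-2β were deleted, called AP-2 dependent below. The outermost peaks counted lay 99.3 kb from Esrp1 and 98.3 kb from Cdh3, and the nearest left out lay 100.2 kb from Cdh3. The assignment is one of distance: it does not say which gene a site acts on, and open chromatin is not expression.

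ATAC-seq, which reads out nucleosome-free DNA by transposase insertion, was performed on surface ectoderm dissected from E11.5 facial prominences, with 2 control and 2 EDKO libraries. EDKO embryos carried Crect, a transgene with Cre activity in the early ectoderm, together with Tfap2a flox/flox and Tfap2b flox/flox. This genotype deletes both AP-2α and AP-2β in that tissue, whereas control littermates were Tfap2a flox/+ and Tfap2b flox/+ without Crect. All 4 libraries thus come from animals with floxed alleles of both genes, and the extent of recombination was not measured here. The libraries of a group were combined before peaks were called, so every peak below is 1 value with no replicate error. The lists do not give the number of reads behind a peak, and reads were not analysed here. No test between groups was therefore run beyond the authors' own call. The control list came from the control libraries alone, and the AP-2 dependent list from the control libraries set against the EDKO libraries. Regions that became more accessible in EDKO were not analysed here, and a peak without a region is a peak at which no loss was called, not one shown to be equal in both genotypes. The height quoted for a site is the −log10 p at its summit, which was compared within its own list because the backgrounds of the lists differ.

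Classical cadherins hold cells together at adherens junctions, where their cytoplasmic tails bind catenins that link to actin. Cdh1 (E-cadherin) and Cdh3 (P-cadherin) are the cadherins of ectoderm and epidermis, Cdh2 (N-cadherin) and Cdh4 (R-cadherin) are found mainly in neural and mesenchymal tissue, and Cdh11 is a cadherin of mesenchyme. Epcam is an adhesion protein of simple and embryonic epithelia, and Esrp1 and Esrp2 are RNA-binding proteins that set the epithelial pattern of splicing, for instance of Fgfr2.

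The 5 AP-2 dependent regions fell at 3 of the 9 genes, where 20.2% of all protein-coding genes had one within 100 kb. Of the 5, 4 lay around the neighbouring genes Cdh3 and Cdh1, which share regions, and 1 lay within Esrp1. No such region was found within 100 kb of Epcam, Esrp2, Cdh2, Cdh4, Cdh11 or Cdh20. None of the 5 regions touched a start site. Their sequences around the summit are printed below because they carry the AP-2 dependent signal of these loci. The bases before the Epcam start are shown as well, as an open promoter without a region. That is the usual case, because 1.2% of control peaks over a start site overlap a region. All were read on GRCm38 and are given on the plus strand, which is also the coding strand of Cdh1, Cdh3 and Epcam. Capitals mark GCCNNNGGC and GCCNNNNGGC, which are AP-2 type palindromes with 3 or 4 bases in the middle, and the E-box CAGGTG on either strand, the letters bound by the Snail and Zeb families.
Esrp1 intron 4 region, chr4:11370716-11370895: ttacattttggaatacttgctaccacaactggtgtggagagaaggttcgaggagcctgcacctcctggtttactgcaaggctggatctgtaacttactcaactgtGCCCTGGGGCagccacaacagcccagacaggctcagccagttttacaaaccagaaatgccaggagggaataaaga
region upstream of Cdh3, chr8:106469487-106469667: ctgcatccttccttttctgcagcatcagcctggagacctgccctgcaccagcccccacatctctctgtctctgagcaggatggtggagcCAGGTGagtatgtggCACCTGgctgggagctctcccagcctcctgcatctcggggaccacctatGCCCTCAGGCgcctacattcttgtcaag
Cdh3 intron 2 region, chr8:106528636-106528816: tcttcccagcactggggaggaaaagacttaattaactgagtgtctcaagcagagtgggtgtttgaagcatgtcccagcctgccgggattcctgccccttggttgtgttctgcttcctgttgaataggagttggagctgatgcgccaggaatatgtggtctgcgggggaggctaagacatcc
region between Cdh3 and Cdh1, chr8:106564101-106564281: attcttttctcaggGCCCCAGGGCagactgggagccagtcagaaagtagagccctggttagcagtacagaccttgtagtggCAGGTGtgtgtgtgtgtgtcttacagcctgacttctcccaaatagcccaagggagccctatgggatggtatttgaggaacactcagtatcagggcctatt
Cdh1 intron 2 region, chr8:106619602-106619782: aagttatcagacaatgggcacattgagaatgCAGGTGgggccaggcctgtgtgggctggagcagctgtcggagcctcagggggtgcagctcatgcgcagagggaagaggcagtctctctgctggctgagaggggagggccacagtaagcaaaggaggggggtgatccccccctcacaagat
Epcam promoter, chr17:87635729-87635978: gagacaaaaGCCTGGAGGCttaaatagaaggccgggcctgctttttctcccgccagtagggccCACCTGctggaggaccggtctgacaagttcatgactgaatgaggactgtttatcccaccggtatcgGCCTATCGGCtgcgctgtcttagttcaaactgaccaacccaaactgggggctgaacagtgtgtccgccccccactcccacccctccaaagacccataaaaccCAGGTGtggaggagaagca

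The letters GCCNNNGGC were absent from all 5 of these regions over their whole length, whereas 29.7% of the AP-2 dependent regions held them (3072 regions on assembled chromosomes were searched). The looser GCCNNNNGGC occurred in 3 of the 5, compared with 23.5% of all regions. It lay 21 bp from the summit of the Esrp1 region and 71 bp from that of the region between Cdh3 and Cdh1. The region upstream of Cdh3 held it at 68 and at 200 bp from its summit. CAGGTG occurred in 3 of the 5, compared with 31.3% of all regions: 3 times in the region upstream of Cdh3, and 1 time each in the region between the genes, 6 bp from its summit, and in the Cdh1 intron, 56 bp from its summit. The strings searched for GRHL factors (AACCGGTT), TEAD factors (GGAATG), CTCF (CCANNAGNNGGC) and the p53 family were in none of the 5 regions. A match to letters is not a bound site, and a region without GCCNNNGGC may still hold an AP-2 site with other letters. Most AP-2 dependent regions lacked GCCNNNGGC too. With 5 regions the 95% Wilson interval of a share of 0 reaches 43.4%. The interval of 3 of 5 runs from 23.1 to 88.2%, which includes the share of all regions for both GCCNNNNGGC and CAGGTG.

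At all 9 genes the start site lay inside a control peak, as it did at 61.4% of 21829 protein-coding genes. The epithelial genes had the higher start-site peaks. Their summit −log10 p was 12.5 at Cdh3, 12.4 at Esrp1, 11.7 at Cdh1, 10.9 at Esrp2 and 9.97 at Epcam, and each was above the median of 9.72 over the start-site peaks of all genes. The other cadherins lay below that median, with 7.92 at Cdh4, 7.39 at Cdh11, 6.80 at Cdh2 and 5.36 at Cdh20. The groups did not overlap, and Cdh3 stood above 85.8% of all start-site peaks, whereas Cdh20 stood above 8.39%. None of the 9 start-site peaks overlapped an AP-2 dependent region, and among all genes with a start-site peak 1.2% did.

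The order of these peaks by width differed from that by height, although Cdh20 came last in both. The Esrp peaks were the broadest of the 9, at 4939 bp for Esrp1 and 4692 bp for Esrp2, wider than 99.3% and 99.2% of start-site peaks. Their summits also stood away from the annotated start, 1477 bp upstream for Esrp1 and 1820 bp downstream for Esrp2. The Cdh4 peak, of middling height, was 2618 bp wide and broader than 91.3%, and the Cdh3, Cdh2 and Cdh11 peaks measured 2252, 2117 and 2083 bp. Epcam and Cdh1 followed with 1836 and 1828 bp. The Cdh20 peak was the narrowest, at 1290 bp, below the median of 1413 bp. Summits of the Cdh1, Cdh3, Cdh4, Cdh2 and Epcam peaks were 40, 14, 42, 147 and 149 bp from the start, and those of Cdh11 and Cdh20 were 571 and 604 bp from it. Additional annotated starts without a peak were found at 3 genes, 139 kb into Cdh2, 451 kb into Cdh4 and 19.6 kb into Esrp1.

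The number of peaks around the start separated the genes further. Cdh1 had 30 peaks within 100 kb, more than 99.0% of genes, and Cdh3 had 17, more than 85.0%. Esrp1 and Esrp2 had 8 each, which is the median over all genes (quartiles 4 and 13), and Epcam had 5. Cdh11 had 3, Cdh2 and Cdh4 had 2 each and Cdh20 had 1. The windows of Cdh1 and Cdh3 overlap and share 12 peaks, so the 76 assignments represent 64 peaks. The 5 epithelial genes accounted for 56 of them and the other cadherins for 8.

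**Figure D1:**
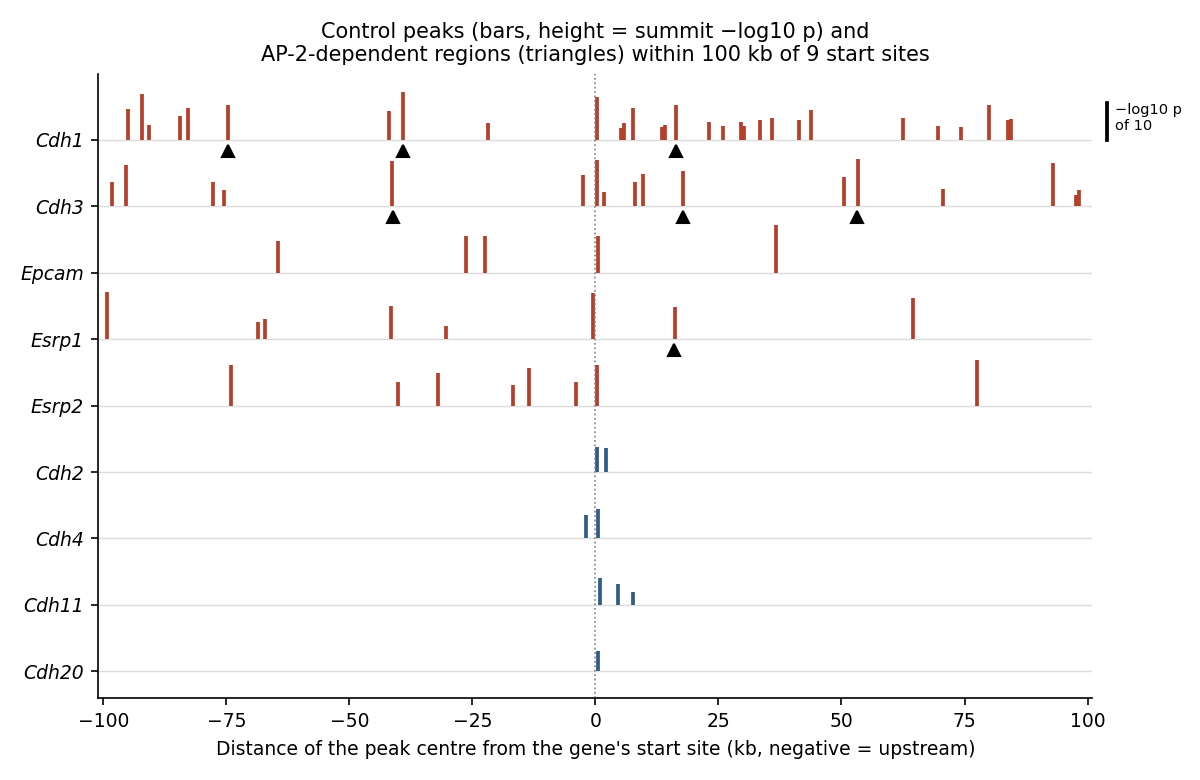
Control peaks within 100 kb of the start site of each of the 9 genes, drawn at their distance from it in kb with negative values upstream; bar height is the summit −log10 p (scale bar of 10), triangles mark AP-2 dependent regions, red marks the epithelial genes and blue the other cadherins. Peaks spread over the windows of Cdh1 (30), Cdh3 (17), Esrp1 (8) and Esrp2 (8) and crowd at the start of Cdh2, Cdh4, Cdh11 and Cdh20, and the regions under Cdh1 and Cdh3 are partly the same ones.

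**Figure D2:**
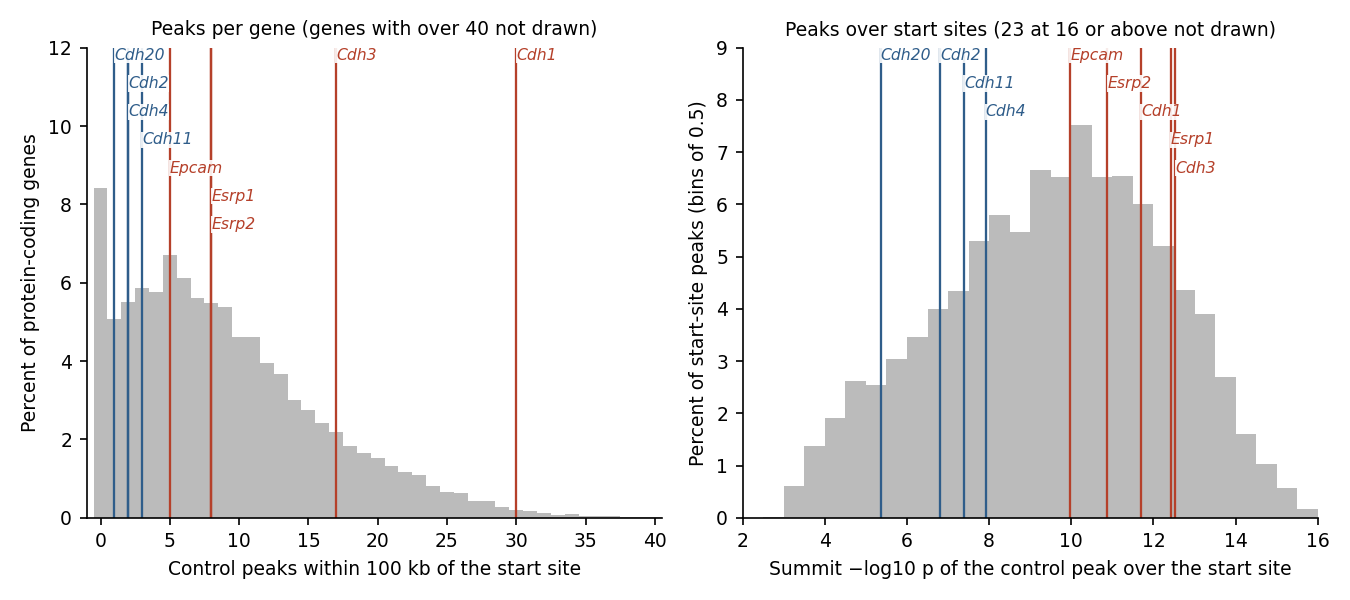
Left, control peaks within 100 kb of the start site for all protein-coding genes (grey, percent of genes; 25 genes above 40 peaks are not drawn); right, the summit −log10 p of control peaks over start sites (grey, percent in bins of 0.5; 23 genes at 16 or above are not drawn). Lines mark the 9 genes, red for the epithelial genes and blue for the other cadherins; Cdh1 lies at 30 peaks, beyond 99.0% of genes, and the blue lines lie left of every red line in the right panel.

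Across the 64 peaks the median summit −log10 p was 6.68 (interquartile range 5.22 to 9.66, range 3.15 to 13.1), against 5.10 for all control peaks. The peaks of these loci were also wider, with a median of 909 bp (range 215 to 4939) against 560 bp, while GC content was 51.4% against 51.8%. Promoter-distal peaks, more than 5 kb from any protein-coding start, made up 36 of the 64 (56.3%), compared with 69.9% of all control peaks. The heights stood above the list as a whole in both classes, at 5.68 against 4.66 for distal peaks and 8.66 against 7.65 for the rest. Of the 28 peaks near a start, 15 were nearest to a start of the 9 genes and 13 to that of a neighbour such as Prmt7 or Virma.

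An AP-2 dependent region was present at 5 of the 64 peaks (7.81%, 95% Wilson interval 3.38 to 17.0%), compared with 4.48% of all control peaks. The 5 were all distal, so the share was 5 of 36 among distal peaks (13.9%, 6.08 to 28.7%), where all distal control peaks gave 5.75%. Near a start it was 0 of 28, where all control peaks near a start gave 1.52%. The intervals cover counting error only; that over the 64 peaks includes the share of the whole list, and that over distal peaks begins just above it. Neighbouring peaks of 1 locus are not independent, and 4 of the 5 stand within 1 locus: without the Cdh3 and Cdh1 windows, 1 of 29 peaks (3.45%) had a region. When region and peak had each to be covered to at least 50% by the other, 1 of 64 (1.56%) remained, compared with 2.87% of all control peaks. Counted by gene, 3 of 9 had a region within 100 kb, compared with 20.2% of all genes, and 2 of those 3 share regions.

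**Figure D3:**
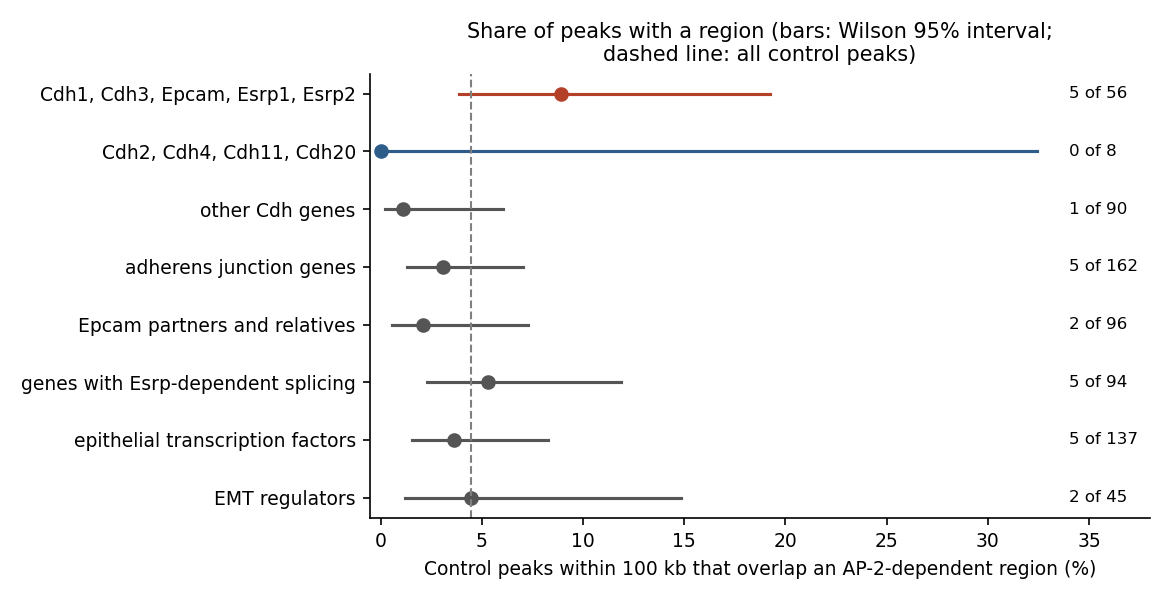
Share of control peaks within 100 kb of the listed genes that overlap an AP-2 dependent region, in percent, with 95% Wilson intervals for counting error and the counts at the right; the dashed line is the share of all control peaks (4.48%). The epithelial genes stand at 5 of 56 and the other cadherins of the 9 at 0 of 8, and every interval drawn includes the dashed line. The epithelial marker genes, described in the text, are not drawn, and their interval lies above the line (12.8%, 7.93 to 20.1%). The paper had already listed AP-2 dependent peaks for several of these markers, so no conclusion is drawn from that excess.

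Cdh3 and Cdh1 lie head to tail on the plus strand of chromosome 8 (chr8:106510891-106557297 and chr8:106603351-106670246), with 46.1 kb between them and 92.5 kb between their starts. The joined windows, 292 kb long, held 35 peaks, of which 4 had an AP-2 dependent region (4.48% of all control peaks). All 4 were among the 26 distal peaks (5.75% of all distal control peaks). Within 100 kb, Cdh3 and Cdh1 had 3 regions each, 2 of them in common, a number that 1.46% of all genes (319) reached or passed. The strongest of the 4 lay 41.2 kb upstream of Cdh3 in intergenic DNA (chr8:106469362-106470000, 639 bp). Its summit −log10 p was 14.3 and its area under the curve, which sums the signal above threshold along the region, was 2747, ranks 164 and 155 of 3103. The nearest protein-coding start was that of 6030452D12Rik, 30.8 kb away. The control peak around it reached 12.2, above 96.3% of control peaks.

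The region between the genes (chr8:106563924-106564350, 427 bp) was the next strongest, with a summit −log10 p of 11.1 and an area of 1616, ranks 206 and 243. It lay 53.2 kb downstream of the Cdh3 start and 39.2 kb upstream of the Cdh1 start, and the predicted gene Gm10073 starts nearer, 9.32 kb away. The control peak there had a summit of 12.9, above 97.7% of all control peaks, and was the highest distal peak of both Cdh1 and Cdh3. The 2 intronic regions of the locus were weaker and similar to each other in height. The one in intron 2 of Cdh3 (chr8:106528471-106529009, 539 bp), 17.8 kb downstream of the start, had a summit of 5.80 and an area of 841. The one in intron 2 of Cdh1 (chr8:106619541-106619871, 331 bp), 16.4 kb downstream of the start, had a summit of 5.80 and an area of 503. Both exceeded the medians of all regions, 4.40 for the summit and 395 for the area.

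The 44.6 kb intron 2 of Cdh1 held 14 control peaks, from 5.21 to 43.7 kb downstream of the start, and 1 of them overlapped a region, where 5.75% of all distal control peaks did. Their summits ran from 3.15 to 9.45 with a median of 4.90, and the peak with the region was the highest. Those at 7.70 and 43.7 kb, with 8.64 and 8.19, came next and had none. The 24.1 kb intron 2 of Cdh3 held 4 peaks with summits from 4.00 to 9.56, and again the peak with the region was the highest. The peaks with a region in the Cdh1 window had control summits of 9.56, 12.9 and 9.45, and the Cdh1 start-site peak, at 11.7 and without a region, lay among them. Peak height and the call of a region are not independent, because both calls used the same control libraries. A relation between height and region was not tested.

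**Figure D4:**
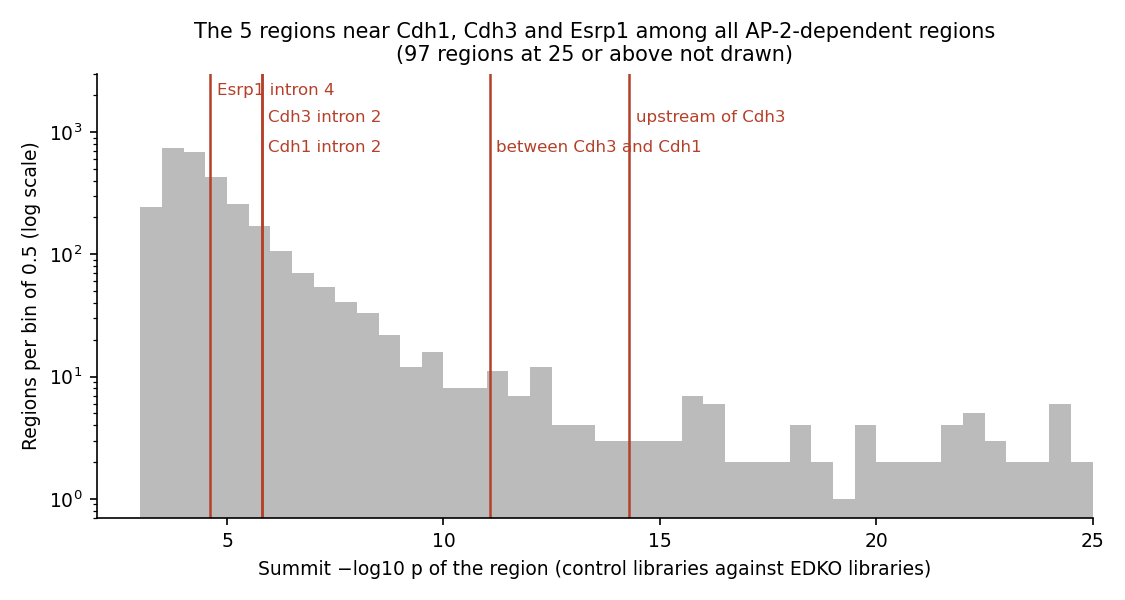
Summit −log10 p of all AP-2 dependent regions (grey, number of regions in bins of 0.5 on a log axis; 97 regions at 25 or above are not drawn), with red lines at the 5 regions near Cdh1, Cdh3 and Esrp1. The region upstream of Cdh3 (14.3) and that between Cdh3 and Cdh1 (11.1) stand in the tail, the intronic regions of Cdh3 and Cdh1 share a line at 5.80, and that of Esrp1 stands at 4.62.

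Esrp1 (minus strand, chr4:11331933-11386783) had the remaining region, in intron 4, 15.9 kb downstream of the start (chr4:11370716-11370995, 280 bp). Its summit −log10 p was 4.62 and its area 385, beside medians of 4.40 and 395, so it was a region of ordinary strength (rank 1314 by summit). The control peak around it had a summit of 8.78 and was the sole peak of the 12.1 kb intron. The highest distal peak of Esrp1, at 41.6 kb upstream with 8.88, had no region. Of the other peaks, those at 64.6 kb downstream and 99.3 kb upstream, with summits of 11.1 and 12.7, lay at the starts of Dpy19l4 and Virma.

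Each of the 5 regions was contained in a control peak and took up part of it: 35.2% at Esrp1, 61.5% upstream of Cdh3, 48.5% in Cdh3, 33.6% between the genes and 47.2% in Cdh1, against a median of 62.8% over all regions. The summits of region and peak coincided or lay 1 bp apart at 4 of them, and stood 29 bp apart between Cdh3 and Cdh1. Both calls used the same control libraries, and none of the 3103 regions lay outside the control peaks. Containment and close summits are therefore not read as traits of these loci. Repeat-masked sequence made up 30.0% of the region upstream of Cdh3, under 10% of 2 others (9.83% in Cdh3 and 7.49% between the genes) and none of those in Esrp1 and Cdh1.

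Epcam (chr17:87635979-87651129) had few but high peaks. Its start-site peak had a summit of 9.97, and the distal peaks at 26.3, 22.4 and 64.6 kb upstream reached 10.1, 10.0 and 8.63, above 89.6%, 89.3% and 83.1% of all control peaks. None of the peaks in its window overlapped an AP-2 dependent region, and the nearest one lay 134 kb upstream, within a lincRNA and with a summit of 3.49. The 250 bases before the Epcam start held CAGGTG or its complement 2 times and GCCNNNNGGC 2 times, and did not hold GCCNNNGGC. Over 32851 promoters (250 bases before to 50 after the start, RefSeq, GRCm38.p6), 20.2% held CAGGTG, 14.8% GCCNNNNGGC and 16.6% GCCNNNGGC. Promoter sequences were matched for Epcam and Cdh20 of the 9 genes, and that of Cdh20 held none of these strings.

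Esrp2 (minus strand, chr8:106130319-106136974) lies in a gene-dense stretch with 5 other protein-coding starts within 100 kb. Its 8 peaks had a median summit of 9.59, but 5 of them, with summits from 5.52 to 12.4, were nearest to the starts of Nfatc3, Pla2g15, Slc7a6 and Prmt7 and within 5 kb of them. The sole distal peak, in intron 1 of Slc7a6 at 40.2 kb upstream, had a summit of 6.31. None had a region, and the nearest one lay 236 kb away in intron 1 of Pskh1.

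The remaining cadherins were open at the start and nearly bare around it. Cdh2 (minus strand, chr18:16588877-16809246) had its start-site peak of 6.80 and a peak 2.16 kb into intron 1 with 6.57. Cdh4 (chr2:179442431-179899373) had its start-site peak of 7.92 and a peak 2.01 kb upstream with 6.27. Cdh11 (minus strand, chr8:102632095-102785642) had 7.39 at the start and peaks of 5.62 and 3.46 at 4.65 and 7.54 kb into intron 1, the last being the sole distal peak in the windows of the 4 genes. Cdh20 (chr1:104768529-104995481) had its start-site peak alone. No other protein-coding gene starts within 100 kb of any of the 4.

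These 4 genes are long, and their bodies reach beyond the window. Further into Cdh4, from 143 to 433 kb, 13 peaks were found in introns, with a median summit of 4.32 (range 3.56 to 8.04), and the highest stood in intron 3 at 350 kb. Cdh20 had 3 peaks beyond the window (3.82 to 4.95), the outermost in coding exon 12, Cdh2 had 1 in intron 2 (5.62), and Cdh11 had 0. None of these peaks overlapped an AP-2 dependent region. The nearest region to each gene was 398 kb away for Cdh4, 348 kb for Cdh20, 1144 kb for Cdh2 and 3116 kb for Cdh11. With 0 of 8 peaks in the windows, the Wilson interval of the share with a region reaches 32.4%, so a share like that of the epithelial genes (8.93%, 3.87 to 19.3%) was not distinguishable at this number of peaks.

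Over the whole length of the 64 peaks, GCCNNNGGC was present in 32.8% (95% Wilson interval 22.6 to 45.0%), compared with 32.4% of 65298 control peaks on chromosomes. CAGGTG was in 60.9% (48.7 to 71.9%) against 46.8%, GGAATG in 53.1% (41.1 to 64.8%) against 39.3%, and GCCNNNNGGC in 40.6% (29.5 to 52.9%) against 29.0%. For the others the interval included the share of the list, at 17.2% (9.88 to 28.2%) against 12.1% for CCANNAGNNGGC, 26.6% (17.3 to 38.5%) against 21.5% for the p53 family string and 1 of 64 (up to 8.33%) against 0.689% for AACCGGTT. The 64 peaks were wider, as given above, so the strings were also counted within 100 bp of the summit. No intervals were computed for these counts, so no difference from the list is read from them, and AACCGGTT is too rare to show one. GCCNNNGGC was at 6 of 64 peaks (9.38%) against 14.4% of all, the p53 family string at 4 (6.25%) against 8.68% and AACCGGTT at 0 against 0.338%. GCCNNNNGGC was at 14 (21.9%) against 12.8%, CAGGTG at 16 against 19.7%, GGAATG at 13 (20.3%) against 17.9% and CCANNAGNNGGC at 7 (10.9%) against 8.09%.

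Of the 9 start-site peaks 8 held GCCNNNGGC (56.5 to 98.0%), all but that of Epcam, compared with 67.4% of the 12323 peaks over start sites, which the interval includes. Within 100 bp of the summit 1 of 9 held it, against 22.7%. CAGGTG was in all 9 (interval from 70.1%) against 69.4%, and within 100 bp of the summit in 6 of 9 against 13.6%. GGAATG was in 8 of 9 (56.5 to 98.0%) against 47.9%, and within 100 bp of the summit in 2 of 9 against 7.14%. For the remaining strings the interval over the whole peak included the share of all start-site peaks. All of the 9 peaks but that of Cdh20 were wider than the median start-site peak, so whole-peak shares are not compared at equal width. No intervals were computed within 100 bp of the summit, so no difference is read from those counts. CAGGTG was most numerous in the wide peaks of Esrp1 (11 times) and Esrp2 (9 times) and in that of Cdh1 (7 times), and GCCNNNGGC in that of Cdh1 (5 times).

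Around lists of genes that belong with these proteins, between 1.11% and 5.32% of the peaks had a region, beside 4.48% of all control peaks. The adherens junction list holds the catenins and their partners and the nectins: 11 of 11 starts lay in a peak (61.4% of all genes), and 5 of 11 genes had a region (20.2% of all genes), each with 1, at Ctnnd1 (p120 catenin, 15.6 kb from the start), Nectin1 (22.0 kb), Ctnnb1 (β-catenin, 64.5 kb), Ctnna1 (α-catenin, 73.0 kb) and Nectin4 (81.2 kb). This was 5 of 162 peaks (3.09%, 1.33 to 7.02%). Among 17 other genes named Cdh, 6 starts lay in a peak, the median was 3 peaks per gene, and 1 of 90 peaks (1.11%, 0.196 to 6.03%) had a region, 66.9 kb from Cdh24. The start site was thus in a peak at all 9 genes described here and at 6 of 17 other cadherin genes, compared with 61.4% of all genes.

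Among partners and relatives of Epcam, 2 of 6 genes had a region (20.2% of all genes), Cd9, a tetraspanin, at 72.6 kb and St14 (matriptase) at 27.9 kb, and 2 of 96 peaks overlapped one (2.08%, 0.573 to 7.28%). Cldn7, which binds Epcam, had none within 100 kb. Among genes whose transcripts are spliced under Esrp control, 3 of 6 had a region, beside 20.2% of all genes: Ctnnd1, Arhgef11 at 58.7 and 87.1 kb, and Fgfr2 at 61.9 and 74.6 kb, with 5 of 94 peaks (5.32%, 2.29 to 11.9%). Cd44, Enah and Nf2 had none.

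Regulators of these genes were counted in the same way, beside the same shares of all genes. Of the factors that repress Cdh1 in epithelial-mesenchymal transition, all 6 (Snai1, Snai2, Zeb1, Zeb2, Twist1, Twist2) had an open start, and Zeb2 alone had regions, at 9.88 and 10.8 kb, giving 2 of 45 peaks (4.44%, 1.23 to 14.8%). Of 10 epithelial transcription factors, Trp63 had 4 regions, from 26.7 kb upstream to 31.8 kb downstream, and Grhl3 had 1 at 28.6 kb. The other 8, Grhl1, Grhl2, Ovol1, Ovol2, Klf4, Klf5, Elf3 and Ehf, had none, and 5 of 137 peaks overlapped a region (3.65%, 1.57 to 8.26%). Ehf was the sole factor of this list whose start lay outside any peak.

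Among cell type markers, the starts of 7 of 7 epithelial marker genes lay in control peaks, against 4 of 5 for mesenchyme, 4 of 4 for neural cells, and 1 of 3 each for endothelium and blood, beside 61.4% of all genes. Starts of neural and mesenchymal markers were thus about as often open as those of epithelial markers, and the count does not identify the tissue. Cdh1 and Epcam are among the 7, and the other 5 are Krt5, Krt8, Krt14, Krt18 and Trp63. Around these 5 genes 12 of 82 peaks had an AP-2 dependent region (14.6%, 8.57 to 23.9%), and with Cdh1 and Epcam 15 of 117 (12.8%, 7.93 to 20.1%), both above the 4.48% of all control peaks. The paper lists AP-2 dependent peaks for Krt5, Krt8, Krt14 and Trp63, and the markers were chosen with earlier results known. No conclusion is therefore drawn from this excess. The windows of Krt8 and Krt18 also overlap, and neighbouring peaks are not independent. The start-site peaks of the epithelial markers had summits of 6.77 at Krt8, 7.45 at Krt18, 7.46 at Krt5, 8.50 at Trp63, 9.97 at Epcam, 10.4 at Krt14 and 11.7 at Cdh1. The mesenchymal markers Prrx1, Twist1, Col1a2 and Col1a1 had 3.27, 5.69, 6.01 and 7.96, so that 3 of these 4 lay below every epithelial marker and Col1a1 lay among them. The neural markers ranged from 4.06 at Neurod1 to 8.38 at Tubb3. The open start of the endothelial marker Kdr had 9.01. The part of other cells in the peaks of Cdh2, Cdh4, Cdh11 and Cdh20 was not tested.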

How the data were processed

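ATAC-seq of E11.5 facial surface ectoderm was analysed from the 2 peak lists of the 4 libraries. Per the paper's methods, the authors removed adapters (NGmerge), mapped the read pairs to mm10 with Bowtie2, keeping at most 10 positions for a pair (-k 10), and ran Genrich 0.5 in its ATAC mode without PCR duplicates or mitochondrial reads. The control libraries went into 1 joint call, and a further call set them against the EDKO libraries. The deposited scores are the area under the curve, at least 200.0 in both lists, and a score capped at 1000. The deposited −log10 p values at the summit were made by the authors in Genrich and are unadjusted, and summit offsets are as deposited. The study's methods state a sequencing depth per sample; reads and counts were not analysed here, and the lists do not give the reads behind a peak.

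Coordinates were counted from 1 on GRCm38. Each of 21829 protein-coding genes of GENCODE (mouse release M21) was given the start of its principal transcript. An overlap meant at least 1 bp, and distal meant more than 5 kb from every such start. Strings were matched on both strands of the RefSeq GRCm38.p6 sequence, where GCCNNNGGC and GCCNNNNGGC may overlap each other. Promoter sequences came from a RefSeq table. Shares carry 95% Wilson intervals; peaks are not replicates, so no test was run.

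The 9 genes, the gene lists and the strings were chosen with earlier results of these data known. Genes are named where they are among the 9, hold a peak of theirs, or belong to a list; the regions named are those within 100 kb, the nearest to each gene, the start-site peaks and the highest distal peaks. For some of these the result is not reported here. The alternatives were windows of 50 and 250 kb, an area of at least 500, every annotated start, an overlap of 50% of both intervals, a peak within 1 kb of the start, a gap of 4 bases in the string, and the string within 100 bp of the summit. Analyses used Python 3.11.15, pandas 2.3.3, NumPy 2.4.6, SciPy 1.17.1, pyfaidx 0.9.0.4 and Matplotlib 3.10.9, and overlap and string searches were tested on simulated data.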

Additional observations from a re-analysis of the deposited data

How the results depend on the processing

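For 7 results, 29 alternative values were computed, and 3 more after seeing the data; 25 of the 32 stayed within 1.5 times (counts) or within the 95% interval (shares and the median) of the reported value. A window of 250 kb gave 126 control peaks and 8 AP-2 dependent regions in place of 64 and 5, and lowered the median summit −log10 p to 5.62. Requiring 50% of both intervals for an overlap lowered the share of peaks with a region to 1.56%, because a region fills part of its peak. GCCNNNGGC within 100 bp of the summit was found at 9.38% of the peaks in place of 32.8%. Without the Cdh3 and Cdh1 windows, an alternative chosen after seeing the data, 29 peaks and 1 region were left, with a share of 3.45% in place of 7.81%, within the interval but below the 4.48% of all control peaks. With every annotated start, the number of genes with all starts in a peak fell from 9 to 6. No paired analysis could be made from the lists because each call merged its libraries, and for the same reason no library could be left out. The lists limit what can be said: they hold no value per library and no read numbers, so differences between peaks could not be set against replicate error, and a region missed by the caller cannot be told apart from an unchanged site.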
